A study of Mus musculus with 9 samples.

Results

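The imprinted growth genes Mest, Peg3, Igf2, H19, Dlk1, Meg3, Cdkn1c, Plagl1, Grb10 and Ndn were followed through maps of histone acetylation and of the transcription factor SOX6 in the mouse oligodendrocyte lineage. They were taken by name as known imprinted growth regulators, with earlier results of these data known. They are 10 of the 21889 genes examined, which are all protein-coding genes on chromosomes 1 to 19, X and Y plus the noncoding members H19 and Meg3. Chromatin immunoprecipitation with sequencing (ChIP-seq) had been run on O1+ oligodendrocytes (OL), which carry the surface lipid antigen O1, and on the oligodendrocyte progenitor cells (OPC) that give rise to them. Both came from the epiblast stem cell lines 129O1 and EpiSC5, made from the mouse strains 129SvEv and 129S1/SvImJ. No allele or agent separates the groups. OPC were expanded with bFGF and PDGFA and without SHH after a sort on CD140a and NG2, and OL were purified on O1. H3K27ac, a histone mark of promoters and enhancers in use, was mapped in OL and in OPC of both lines, which makes 4 peak lists. SOX6 was mapped in OL of EpiSC5 and in OPC of both lines, which makes 3. Each line is 1 culture source, so the 2 lines are the only replicates, p-values measure the spread between these lists alone, and a difference between lines cannot be told apart from a difference between libraries.

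An imprinted gene is expressed mainly from the copy inherited from the mother or from the father, because a nearby control region carries DNA methylation from 1 germ line. In the mouse, Mest, Peg3, Igf2, Dlk1, Plagl1 and Ndn are expressed from the paternal copy. H19, Meg3 and Cdkn1c are expressed from the maternal copy, as is Grb10 in most tissues. Many of these genes act on fetal growth, where paternally expressed genes often promote it and maternally expressed genes often restrain it, and several are highly expressed in embryonic and progenitor cells and silenced after birth. A peak list does not separate the parental copies, and fewer cells that carry a mark cannot be told apart from less of the mark per cell.

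The H3K27ac lists held 33738 peaks over 50.87 Mb in OL of 129O1, 31005 peaks over 43.46 Mb in OL of EpiSC5, 30829 peaks over 48.68 Mb in OPC of 129O1 and 27721 peaks over 37.22 Mb in OPC of EpiSC5. The SOX6 list of OL was much the shortest, with 3893 peaks over 1.18 Mb, against 22876 peaks over 8.11 Mb in OPC of 129O1 and 15487 peaks over 5.37 Mb in OPC of EpiSC5. The lists hold no read counts, so depth is unknown and an absent peak means only that none was called in that list. The labelled states were checked on defining genes. Of the oligodendrocyte markers, the myelin protein genes Mbp, Mag and Mog are given. H3K27ac at Mbp covered 23.7 and 37.6 kb in OL of 129O1 and EpiSC5, against 6.17 and 4.32 in OPC. At Mag it covered 4.46 and 8.34 kb in OL, against 0 in both OPC lists. At Mog it covered 4.53 and 4.92 kb in OL, against 4.24 and 2.97 in OPC. Summed over 7 OPC markers, such as Pdgfra and Ptprz1, it covered 59.76 and 48.38 kb in OL, against 101.69 and 84.26 in OPC. The markers did not all go that way, as Sox10 covered 9.85 and 9.27 kb in OL, against 8.68 and 7.73 in OPC, and Olig2 covered 13.4 and 11.6 kb in OL, against 13.5 and 11.2 in OPC.

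For each gene the measure was the length covered by peaks within the RefSeq gene body and 10 kb on each side, in kb. H3K27ac was present at 6 of the 10 genes in at least 1 of its 4 lists, and Igf2, H19, Meg3 and Plagl1 had no peak in any of the 7 lists. Across all genes, 27.9% had no H3K27ac peak in any of the 4 lists. Peg3 and Grb10 had H3K27ac in all 4 lists, as did 56.7% of all genes. Mest had it in both OPC lists and in neither OL list, a pattern of 2.61% of all genes. Ndn, Cdkn1c and Dlk1 had short peaks in 1 or 2 lists. SOX6 lay at Mest, Peg3 and Grb10 in both OPC lists, as at 31.2% of all genes, where 45.8% of genes had it in either OPC list. At Grb10 it also lay in the OL list, as at 16.3% of all genes. Mest and Peg3 were thus among the 20.6% of genes with SOX6 in both OPC lists and not in OL. This contrast depends on list length, since the OL list had 3893 SOX6 peaks and that of OPC of EpiSC5 15487. With equal numbers of SOX6 peaks per list, the mean over both OPC lists was 0 kb at Peg3, in place of 0.6275. At Mest it was 0.18 kb, in place of 0.484, and only Grb10 then had SOX6 in OPC of EpiSC5.

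**Figure D1:**
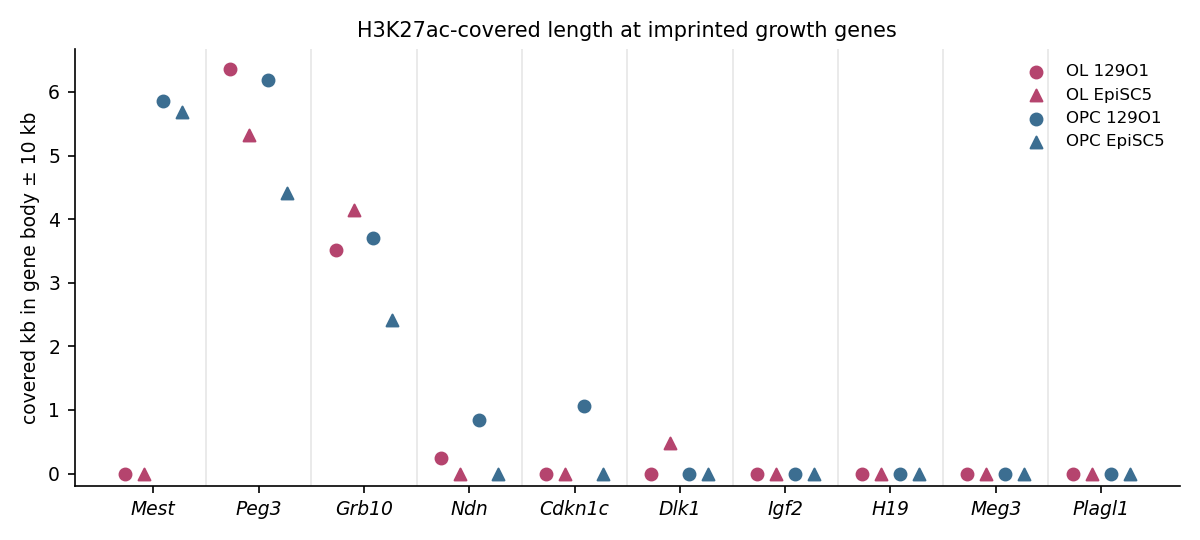
H3K27ac-covered length (kb, unscaled) within the gene body and 10 kb on each side of the 10 imprinted growth genes, 1 point per peak list, with OL in red left of OPC in blue, circles for 129O1 and triangles for EpiSC5. Mest covers 5.86 and 5.68 kb in OPC and 0 kb in both OL lists, while Peg3 and Grb10 have points above 2 kb in all 4 lists.

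H3K27ac at Mest fell in OL, the one call among the 10 genes. It codes for a membrane protein of the alpha/beta hydrolase fold, is expressed from the paternal copy, and is known in the mouse for growth and for maternal behaviour. Its H3K27ac covered 0 kb in OL of both lines, against 5.86 kb in OPC of 129O1 and 5.68 kb in OPC of EpiSC5. The groups did not overlap, and the OPC values exceeded those of 89.95% and 93.51% of all genes in their lists. After each list was scaled to the same total covered length, the change on the log2(kb + 1) scale was -2.82 ± 0.19 (SE, 2 lists per state; adjusted p = 0.00206, limma), with -2.68 in 129O1 and -2.97 in EpiSC5. Mest passed the filter on covered length, given next, through its OPC lists alone, and its OL lists, both at 0, show no spread. For the same reason the size of this value depends on the added 1 kb, and with 0.25 kb it was -4.66. A gene was tested if its 4 lists averaged 1 kb or more, and called if its adjusted p was under 0.05 and its sign equal in each line. Of 12446 tested genes, 16.4% were called narrower in OL and 12.5% wider, and the median change was -0.237. Without scaling the counts were 1562 wider and 1143 narrower, in place of 1560 and 2040, and the median was -0.1318. Relative to these medians Mest changed by -2.58 with scaling and -2.63 without. Of the 10 imprinted growth genes, 3 reached that mean (Mest, Peg3 and Grb10), 1 was called narrower and 0 wider. Fits that left out 1 list held the state term alone, without the term for line and without the rule of equal signs. The change of Mest was -2.97 without OPC of 129O1 and -2.68 without OPC of EpiSC5, and Mest was called in neither fit. When genes of any covered length were tested it was again -2.82 and missed the threshold (adjusted p = 0.129, limma), and there 0 of 21889 genes passed and 4813 had an unadjusted p under 0.05.

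The acetylation at Mest in OPC formed 2 regions. The larger peak lay at chr6:30735027-30739324 in OPC of 129O1 (4.30 kb, the authors' fold enrichment 4.06, above 45.13% of the peaks of its list) and at chr6:30734511-30739058 in OPC of EpiSC5 (4.55 kb, fold enrichment 3.63, above 38.55%). It lies in the gene body, at chr6:30733506-30748466 on the plus strand of GRCm38.p6 (mm10), and spans the internal transcription start at 30738050. The smaller peak lay upstream of the gene, at chr6:30729598-30731163 in 129O1 (1.57 kb, fold enrichment 4.66, above 53.02%) and chr6:30729844-30730973 in EpiSC5 (1.13 kb, fold enrichment 3.36, above 23.41%). Both are peaks of middling or lower rank in their lists. They are 2 of the 15 H3K27ac regions merged over the 4 lists at the 10 genes, and no other of the 15 was held by both OPC lists only, a class that makes up 11.1% of all 49677 regions.

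The promoter windows of RefSeq, 250 bases before a start and 50 after it, show which start carried the mark. At the internal start all 300 bases of the window were covered in both OPC lists and none in either OL list, a pattern of 3.17% of 32851 windows. At the upstream start none was covered in any list. Both are printed on the plus strand with CG dinucleotides, the sites of DNA methylation, in capitals.
Mest, internal start, chr6:30737800-30738099: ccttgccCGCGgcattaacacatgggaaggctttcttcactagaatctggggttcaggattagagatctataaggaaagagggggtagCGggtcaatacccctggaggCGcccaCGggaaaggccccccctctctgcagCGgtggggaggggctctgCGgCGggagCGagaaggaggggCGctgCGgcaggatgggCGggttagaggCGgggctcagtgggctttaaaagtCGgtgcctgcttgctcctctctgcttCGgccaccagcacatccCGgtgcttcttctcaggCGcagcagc
Mest, upstream start, chr6:30733256-30733555: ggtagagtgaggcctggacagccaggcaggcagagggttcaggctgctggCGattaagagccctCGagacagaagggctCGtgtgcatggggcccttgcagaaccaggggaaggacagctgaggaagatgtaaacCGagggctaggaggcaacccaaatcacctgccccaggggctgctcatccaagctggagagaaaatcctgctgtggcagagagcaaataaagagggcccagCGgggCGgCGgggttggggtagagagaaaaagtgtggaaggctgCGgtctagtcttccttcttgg
The internal window holds 17 CG dinucleotides and the upstream window 8, against a median of 7 over all windows. Neither holds ACAAT or its reverse complement ATTGT, the core letters that SOX proteins bind, which occur in 31.0% of all windows.

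SOX6 peaks of OPC lay beside this acetylation. SOX6 covered 0 kb at Mest in OL of EpiSC5, against 0.711 kb in OPC of 129O1 and 0.257 kb in OPC of EpiSC5. The shared peak, chr6:30730193-30730552 in 129O1 (fold enrichment 10.9, above 86.93% of the list) and chr6:30730222-30730478 in EpiSC5 (fold enrichment 5.82, above 56.96%), had its summit upstream of the gene, at -3.13 and -3.16 kb from its start. It lay inside the upstream H3K27ac peak of both OPC lists and in no OL H3K27ac, as did 12.3% of the 13981 OPC SOX6 peaks that the lines share. The second peak of 129O1, chr6:30734322-30734672 (fold enrichment 7.14, above 66.47%), lay 1.00 kb into the gene and was not in the EpiSC5 list. No SOX6 peak of OPC overlapped either promoter window of Mest. In OL the nearest SOX6 peak lay 39.8 kb from the gene and the nearest H3K27ac peak 39.7 kb in both lines, at Cep41. With 1 OL list of SOX6, much shorter than the OPC lists, there is no test of that difference.

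**Figure D2:**
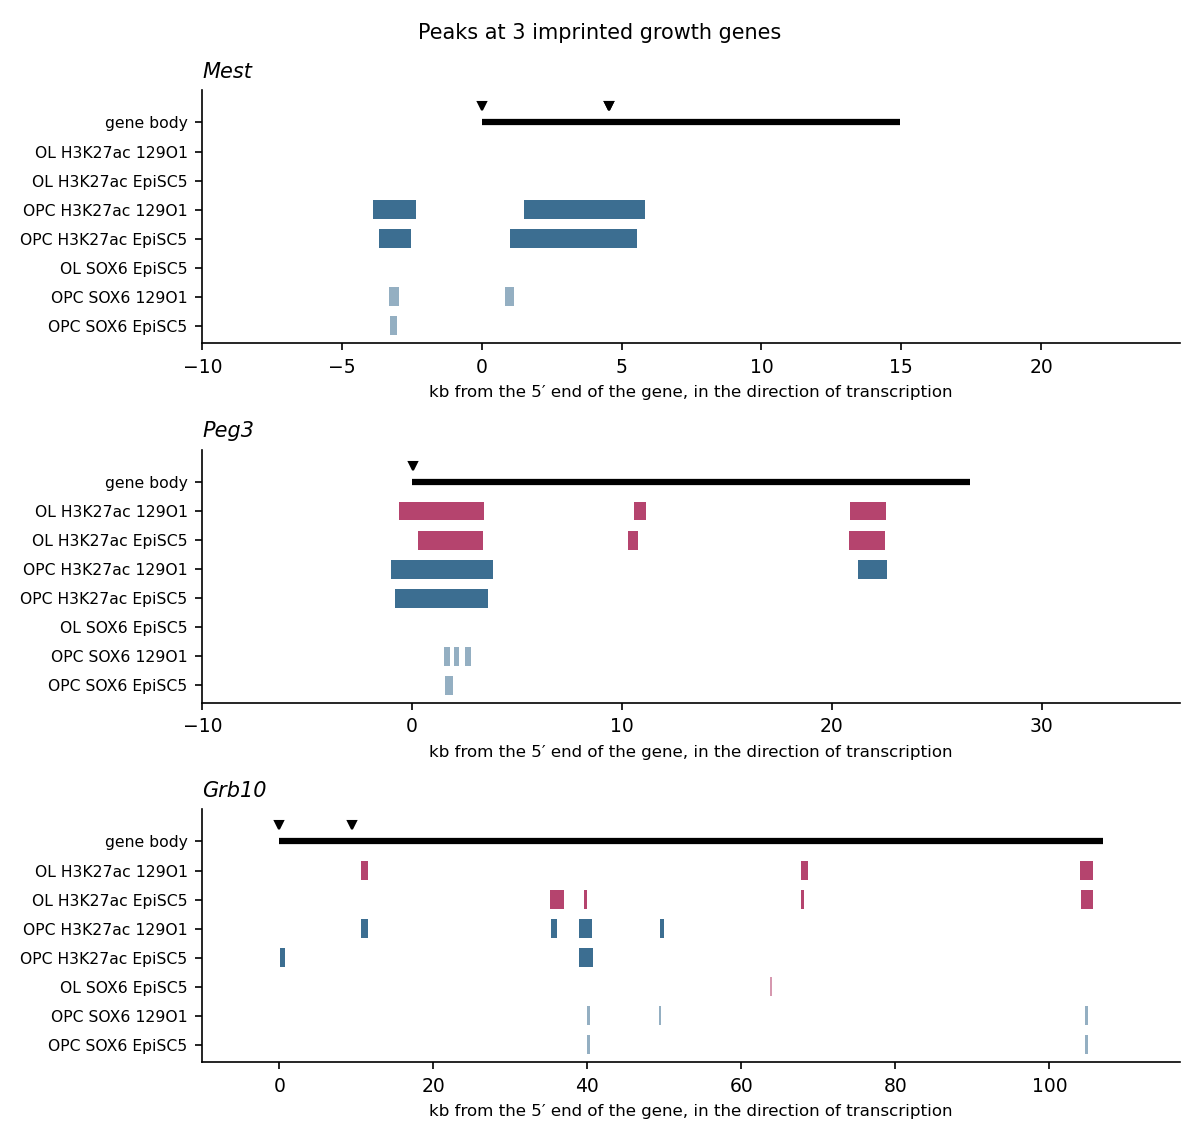
Peaks of the 7 lists (rows, OL above OPC for each target) at Mest, Peg3 and Grb10, in kb from the 5′ end of the gene in the direction of transcription; dark bars are H3K27ac, pale bars SOX6, the black bar the gene body and triangles RefSeq starts with a promoter window. Mest has bars in OPC rows alone, the Peg3 start is spanned or adjoined by H3K27ac in all 4 lists, and the 3′ end of Grb10 has H3K27ac in OL rows and SOX6 in OPC rows.

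The body of Mest also holds Mir335, at chr6:30741299-30741396, which lies past the end of the larger OPC peak. The nearest OPC H3K27ac lay 1.99 kb from its 5p arm in 129O1 and 2.26 kb in EpiSC5, and the nearest in OL lay 47.5 kb away in both lines. The mature arms, from RefSeq on GRCm38.p6, plus strand, are printed with the seed (bases 2 to 8) in capitals.
mmu-miR-335-5p, chr6:30741314-30741336: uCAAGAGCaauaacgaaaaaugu
mmu-miR-335-3p, chr6:30741354-30741375: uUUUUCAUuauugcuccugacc
The peak lists do not measure the microRNA itself. Copg2, a coat protein gene that is expressed from the maternal copy in the mouse brain, overlaps the 3′ end of Mest, so its window takes in part of the Mest peak. Copg2 was called narrower as well, by a change of -1.22 ± 0.19 (SE; adjusted p = 0.00881, limma), and covered 0.699 and 0.705 kb in OL, against 2.82 and 2.66 in OPC. Those OPC lengths include the part of the larger Mest peak that spans the internal start. The call is thus not separate from that of Mest.

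Markers of other cell types were read beside Mest. Over 10 mesenchymal and pericyte markers, summed H3K27ac covered 2.64 and 3.81 kb in OL of 129O1 and EpiSC5, against 9.23 and 6.27 in OPC. Col1a2, Col3a1, Pdgfrb, Rgs5, Twist1 and Lum were at 0 in all 4 lists, while Col1a1 covered 0.372 and 1.31 kb in OL, against 3.92 and 2.55 in OPC. Over 6 pluripotent cell markers the sums were 2.62 and 0.24 kb in OL, against 5.60 and 3.18 in OPC, with Utf1 and Dppa5a at 0 in all 4 lists. Both sums were higher in OPC, as Mest was, though Postn of the mesenchymal list covered 0.943 and 2.50 kb in OL, against 1.55 and 0.842 in OPC. Other lists went the other way or were mixed. Over 5 neuron markers the sums were 24.82 and 16.99 kb in OL, against 16.24 and 13.45 in OPC, and over 6 muscle markers 8.50 and 7.08 kb in OL, against 5.40 and 5.21 in OPC. Over 5 astrocyte markers they were 27.06 and 15.04 kb in OL, against 26.91 and 21.77 in OPC, and over 4 microglia markers 6.30 and 3.88 kb in OL, against 5.37 and 4.72 in OPC. The part of other cell types in the Mest difference was not tested. The 3 tested genes nearest to Mest in their 4 scaled log2 values were Lancl3 (distance 0.196), Stat6 (0.297) and Aipl1 (0.301). They had 0 kb in both OL lists, which follows from their choice by these same values.

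Peg3 had H3K27ac in OL and OPC of both lines, and its breadth did not pass the test between the states. It codes for a large zinc finger protein, is expressed from the paternal copy, and lies at chr7:6703892-6730462 on the minus strand. H3K27ac covered 6.35 and 5.32 kb in OL of 129O1 and EpiSC5, against 6.19 and 4.42 in OPC. OL and OPC values overlapped, and within each line OL was the higher before scaling. The scaled change was 0.01 ± 0.17 (SE, 2 lists per state; adjusted p = 0.974, limma), and so did not pass the test, with -0.02 in 129O1 and 0.04 in EpiSC5.

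The peak over the start of Peg3 was the only region of the 15 present in all 4 lists, a class of 30.1% of all regions. It spanned 4.06 kb in OL of 129O1 and 3.11 kb in OL of EpiSC5, against 4.82 and 4.42 in OPC, with fold enrichments of 5.13 and 5.56 in OL, against 8.85 and 8.19 in OPC. Within their own lists these peaks stood above 79.85% and 84.5% of peaks in OL and above 89.38% and 91.01% in OPC. Enrichments and ranks of different lists cannot be compared, so no change or lack of change is read from them. The start itself, at 6730419, was covered in 3 of the lists, since the peak of OL of EpiSC5 began 0.233 kb inside the gene. All 300 bases of the promoter window were covered in OL of 129O1 and in both OPC lists, and none in OL of EpiSC5. The window, on the minus strand with CG dinucleotides in capitals, holds 13 of them.
Peg3, chr7:6730370-6730669: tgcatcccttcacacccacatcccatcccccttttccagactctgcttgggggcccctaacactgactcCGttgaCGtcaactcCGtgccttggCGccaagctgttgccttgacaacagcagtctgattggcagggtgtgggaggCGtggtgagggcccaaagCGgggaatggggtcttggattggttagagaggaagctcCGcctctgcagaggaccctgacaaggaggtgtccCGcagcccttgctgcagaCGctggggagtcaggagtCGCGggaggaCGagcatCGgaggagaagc
Away from the start, a region near the 3′ end at chr7:6707842-6709662 was held by both OL lists and by OPC of 129O1. Its fold enrichments, each within its own list, were 5.50 and 7.26 in OL and 3.26 in OPC of 129O1. A further region inside the gene, chr7:6719336-6720161, was held by both OL lists only, a class of 16.7% of all regions, through peaks of low rank (above 24.89% and 10.13% of their lists).

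SOX6 peaks at Peg3 ranked low and were found in OPC but not in the OL list, which is much shorter. They covered 0 kb in OL of EpiSC5, against 0.872 kb in OPC of 129O1 through 3 peaks and 0.383 kb in OPC of EpiSC5 through 1. Their fold enrichments were 2.84 to 3.87 in 129O1 and 2.74 in EpiSC5, and they stood above 5.27% to 27.49% and 2.95% of the peaks of their lists. All 4 lay 1.6 to 2.6 kb inside the gene and within the promoter peak of H3K27ac in all 4 lists, as did 45.3% of the OPC SOX6 peaks shared by the lines. The nearest SOX6 peak of OL was 293.5 kb away.

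Usp29, a deubiquitinase gene that is expressed from the paternal copy, begins beside Peg3 and runs the other way, so its window shares the promoter peak. Usp29 was called narrower in OL, with a change of -1.13 ± 0.17 (SE; adjusted p = 0.00885, limma) and 4.31 and 3.11 kb in OL, against 9.82 and 7.13 in OPC. The shared peak spanned 4.06 and 3.11 kb in OL, close to all of the Usp29 length there. In OPC it spanned 4.82 and 4.42 kb, so the further OPC length lay elsewhere in the Usp29 window. Zim1, a further zinc finger gene of the cluster, had no H3K27ac in any list.

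The H3K27ac breadth of Grb10 did not pass the test between OL and OPC, and some of its peaks were held by lists of 1 state alone. Its product is an adaptor that binds the insulin and IGF1 receptors and restrains their signalling, and the gene, at chr11:11930499-12037428 on the minus strand, is expressed from the maternal copy in most mouse tissues and from the paternal copy in neurons. H3K27ac covered 3.51 and 4.14 kb in OL of 129O1 and EpiSC5, in 3 and 4 peaks, against 3.70 and 2.42 in OPC, in 4 and 2 peaks. The scaled change was 0.16 ± 0.20 (SE, 2 lists per state; adjusted p = 0.535, limma), -0.11 in 129O1 and 0.43 in EpiSC5, and so did not pass the test. With 50 kb on each side the change was 0.63 and passed (adjusted p = 0.0466, limma), a window that also takes in peaks outside the gene.

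Of 7 merged regions within Grb10, 3 were held by at least 1 list of each state, 2 by a single OPC list and 2 by both OL lists only. The one near the 3′ end, at chr11:11931734-11933393 in OL of 129O1 (fold enrichment 7.16, above 79.39%) and chr11:11931704-11933364 in OL of EpiSC5 (fold enrichment 5.93, above 76.77%), was 1.66 kb wide in each. It contained the highest-ranked SOX6 peak of OPC at any of the 10 genes, at chr11:11932363-11932819 in 129O1 (fold enrichment 16.9, above 96.45%) and chr11:11932391-11932807 in EpiSC5 (fold enrichment 16.8, above 94.2%). This site had no H3K27ac in either OPC list and no SOX6 peak in OL. Of the shared OPC SOX6 peaks, 5.08% had H3K27ac in both OL lists and no OPC list, and 89.7% were not overlapped by SOX6 in OL.

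The other shared SOX6 site of Grb10 had the reverse arrangement in 129O1. It lay at chr11:11997067-11997494 in OPC of 129O1 (fold enrichment 9.48, above 84.57%) and chr11:11997097-11997419 in OPC of EpiSC5 (fold enrichment 5.84, above 60.15%), inside H3K27ac peaks of 1.67 and 1.80 kb in OPC of the same lines. In OL of EpiSC5 a peak of 0.34 kb lay within that region, and OL of 129O1 had none. The second region held by both OL lists only, chr11:11968723-11969649, had peaks of 0.927 and 0.268 kb and no SOX6. In all, SOX6 covered 0.178 kb at Grb10 in OL of EpiSC5, against 1.10 kb in OPC of 129O1 and 0.740 kb in OPC of EpiSC5, and the single OL peak, chr11:11973479-11973656, lay in no H3K27ac of either state.

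The CG-rich start of Grb10 carried no peak. Its promoter window holds 45 CG dinucleotides and was uncovered in all 7 lists, with the nearest peak, in OPC of EpiSC5, running from 0.109 to 0.72 kb inside the gene. It is printed on the minus strand as the contrast to the covered windows above, again with CG in capitals.
Grb10, chr11:12037371-12037670: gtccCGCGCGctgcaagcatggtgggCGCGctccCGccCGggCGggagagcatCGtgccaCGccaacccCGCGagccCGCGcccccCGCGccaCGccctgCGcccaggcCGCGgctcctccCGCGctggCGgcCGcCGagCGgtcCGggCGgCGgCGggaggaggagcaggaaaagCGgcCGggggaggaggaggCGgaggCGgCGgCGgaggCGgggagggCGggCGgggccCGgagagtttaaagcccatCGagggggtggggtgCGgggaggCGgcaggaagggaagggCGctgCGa
The second annotated start, at 12027971, was also uncovered, though OL and OPC of 129O1 had peaks 1.1 to 2.0 kb inside the gene from it.

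**Figure D3:**
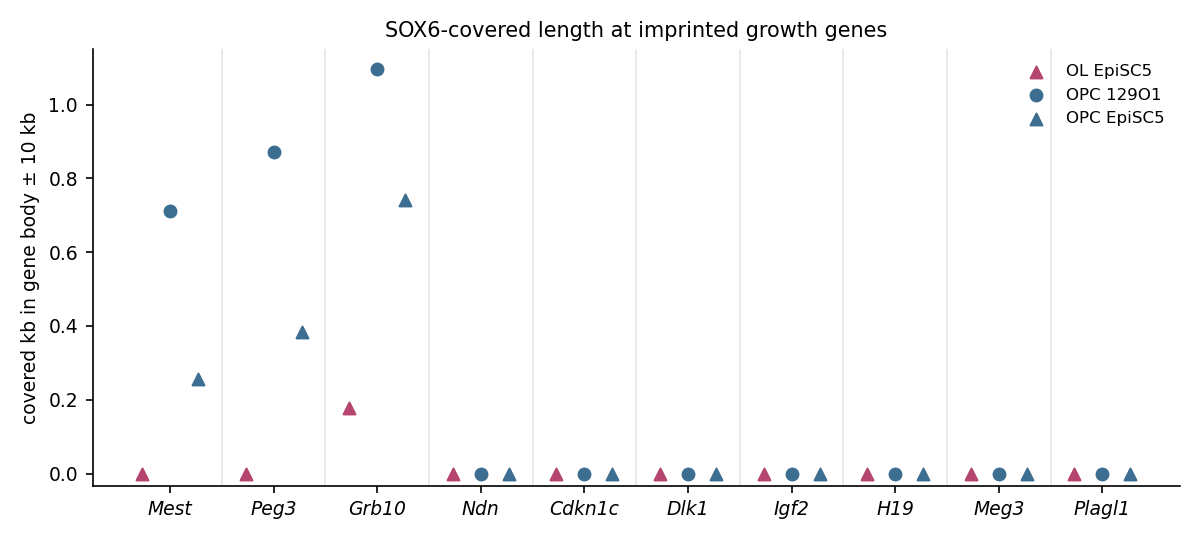
SOX6-covered length (kb, unscaled) within the gene body and 10 kb on each side of the 10 genes, 1 point per list, with OL of EpiSC5 in red left of OPC in blue, circles for 129O1 and triangles for EpiSC5. Mest, Peg3 and Grb10 have SOX6 in both OPC lists, Grb10 alone has it in OL (0.178 kb), and the other 7 genes lie at 0 in all 3 lists.

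Taking all 10 genes, 0 of 1 SOX6 peak in OL, 6 of 8 in OPC of 129O1 and 3 of 4 in OPC of EpiSC5 overlapped H3K27ac of the same state and line. Over the whole lists these shares were 74.1%, 69.4% and 68.0%. Of 300-base promoter windows in the genome, SOX6 overlapped 5.09% in OL, 11.0% in OPC of 129O1 and 5.65% in OPC of EpiSC5, and it overlapped none of the 15 windows of the 8 genes matched in the RefSeq promoter table.

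Ndn, Cdkn1c and Dlk1 had acetylation in a single line each, too little to be tested. Ndn codes for necdin, a protein of the MAGE family that restrains cell growth in neurons, and is expressed from the paternal copy. At chr7:62348277-62349928, its H3K27ac covered 0.248 kb in OL of 129O1 and 0 kb in OL of EpiSC5, against 0.835 kb in OPC of 129O1 and 0 kb in OPC of EpiSC5. The OPC peak had a fold enrichment of 5.07, above 55.03% of its list, and covered 87 bases of the promoter window, while the OL peak lay 0.1 kb past the start. The window is printed on the plus strand with CG in capitals and holds 11 of them.
Ndn, chr7:62348027-62348326: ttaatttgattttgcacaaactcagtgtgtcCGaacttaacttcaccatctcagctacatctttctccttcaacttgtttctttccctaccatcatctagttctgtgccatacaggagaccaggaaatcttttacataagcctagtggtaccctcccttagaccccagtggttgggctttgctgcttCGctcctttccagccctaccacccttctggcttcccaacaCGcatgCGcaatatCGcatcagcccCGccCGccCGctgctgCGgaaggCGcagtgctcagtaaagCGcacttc
The nearest H3K27ac peak of EpiSC5 lay 64.9 kb away in OL and 15.3 kb away in OPC.

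Cdkn1c, at chr7:143458339-143461059, codes for the cyclin-dependent kinase inhibitor p57, which holds cells out of division. It had 0 kb in both OL lists, against 1.06 kb in OPC of 129O1 and 0 kb in OPC of EpiSC5. That peak, at the end of the gene with the higher coordinates, had a fold enrichment of 3.05 and stood above 26.4% of its list. Just outside the 10 kb limit, both OL lists had a peak 12.4 and 12.3 kb from the gene, and no OPC peak lay there, the nearest in OPC of EpiSC5 being 87.0 kb from the gene. Dlk1, at chr12:109452485-109463336, codes for a transmembrane protein with EGF-like repeats that resembles Notch ligands and marks many progenitor cells. It covered 0 kb in OL of 129O1 and 0.488 kb in OL of EpiSC5, against 0 kb in both OPC lists. That peak had a fold enrichment of 4.12, above 34.88% of its list, and lay 2.34 kb outside the gene. None of these 3 genes had SOX6 in any list.

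The remaining genes had no peak of either kind in their windows. Igf2, a fetal growth factor that signals through the IGF1 and insulin receptors, lies at chr7:142650768-142666816, and H19, the noncoding RNA that shares its control region, lies at chr7:142575530-142578146. The 52.621 kb between their windows held no peak in any of the 7 lists. The nearest H3K27ac to Igf2 was 59.0 kb away in OL of 129O1 and 111.0 kb in OL of EpiSC5, against 58.6 and 58.9 in OPC. For H19 it was 35.9 and 35.8 kb in OL, against 36.7 and 36.5 in OPC, at Mrpl23 in all 4 lists. Meg3, the maternally expressed noncoding RNA of the Dlk1 domain at chr12:109540996-109571729, was likewise empty, as were the 57.659 kb between the windows of Dlk1 and Meg3. The nearest H3K27ac to Meg3 lay 455.0 kb away in OL of 129O1 and 37.0 kb in OL of EpiSC5, at Rian, against 586.6 and 645.9 in OPC. A SOX6 peak of OPC of EpiSC5 lay 36.7 kb from Meg3, also at Rian. Plagl1, a zinc finger transcription factor at chr10:13090832-13131694 that regulates other imprinted genes, had its nearest H3K27ac in all 4 lists at Ltv1, between 60.5 and 60.6 kb away.

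**Figure D4:**
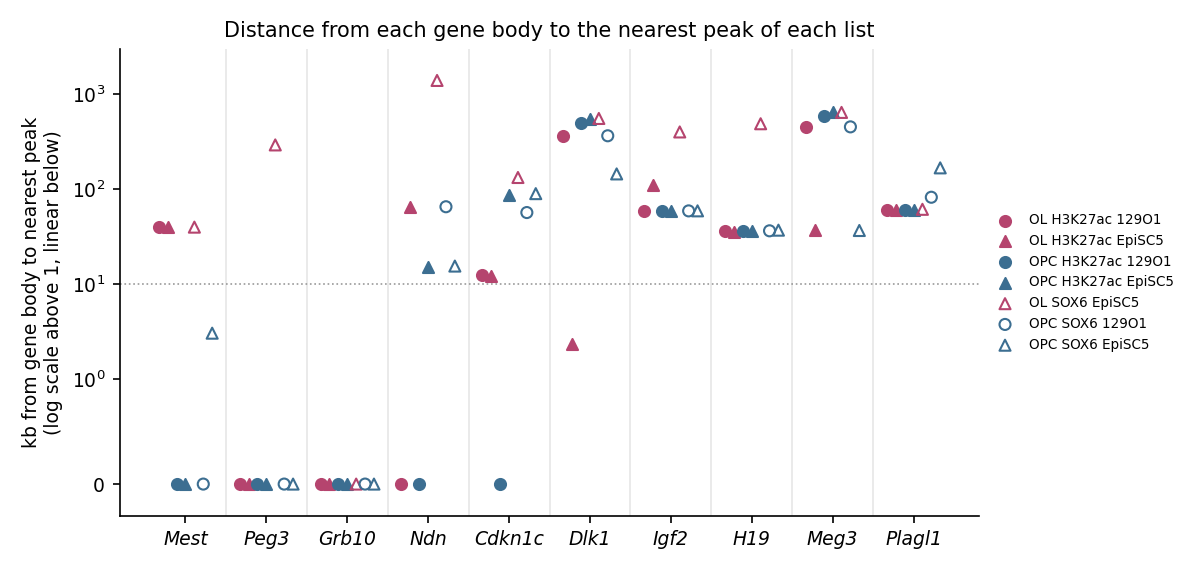
Distance in kb from the body of each of the 10 genes to the nearest peak of each of the 7 lists (log scale above 1, linear below; 0 means a peak in the gene), with OL in red and OPC in blue, filled symbols for H3K27ac, open for SOX6, circles for 129O1 and triangles for EpiSC5; the dotted line marks 10 kb. Igf2, H19, Meg3 and Plagl1 have every symbol above the line, and at Mest the OL symbols lie at 39.7 to 39.8 kb while the OPC symbols lie at or below 3.03 kb.

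Between the lines, 11 of 12446 genes (0.0884%) differed in H3K27ac breadth by the same rule (limma), and none of the 3 imprinted growth genes tested did. The difference 129O1 minus EpiSC5 was -0.15 for Mest (adjusted p = 0.886, limma), 0.06 for Peg3 (adjusted p = 0.957, limma) and -0.10 for Grb10 (adjusted p = 0.934, limma). Ndn and Cdkn1c had H3K27ac in 129O1 lists only and Dlk1 in an EpiSC5 list only, which was not tested.

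Mest was set beside other imprinted genes, genes of the IGF and insulin pathway and a list of imprint maintenance genes that includes the Tet genes. Of 55 other imprinted genes listed, 29 were tested. Noncoding RNAs other than the members were left out by rule, as were genes under the mean. Of the 29, 3 were called wider and 10 narrower in OL, where 12.5% and 16.4% of all tested genes were. The median change was -0.424, where all tested genes had -0.237. In a fit that took in genes of every type, 32 of the list were tested, 3 called wider and 11 narrower. Sgce and Peg10 are neighbours expressed from the paternal copy, coding for epsilon-sarcoglycan and for a protein derived from a retrotransposon, and their windows share peaks. Sgce covered 0.465 and 0.241 kb in OL, against 6.18 and 3.89 in OPC, a change of -2.22 (adjusted p = 0.00243, limma), and Peg10 changed by -2.02 (adjusted p = 0.00281, limma). Slc22a3, an organic cation transporter of the Igf2r cluster, had 0 kb in both OL lists, against 2.89 and 2.21 in OPC, a change of -1.87 (adjusted p = 0.00556, limma). Like Mest, Slc22a3 passed the filter through its OPC lists alone, and its OL lists, both at 0, show no spread. Sgce, Peg10 and Copg2, each under 1 kb in both OL lists, also reached the mean through OPC. Inpp5f (-1.47), an inositol phosphatase gene, Snrpn (-1.45), a splicing protein gene of the Ndn domain, and Copg2 (-1.22) and Usp29 (-1.13), described above, were also narrower. Sgce and Peg10 share peaks with each other, and Copg2 shares one with Mest, so the 10 narrower calls are not independent. Ddc, the aromatic amino acid decarboxylase gene beside Grb10, was wider, with 7.91 and 8.85 kb in OL, against 2.64 and 3.15 in OPC, a change of 1.15 (adjusted p = 0.0085, limma). Nap1l4 (0.91) and Kcnq1 (0.76), which lie in the domain of Cdkn1c, were the other called gains and are named because their values were seen. Without OPC of either line no gene of the list passed, and without OL of EpiSC5 the counts were 0 wider and 6 narrower.

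Grb10 and Igf2 act on insulin and IGF signalling. Of 30 genes of that pathway, 25 were tested, and 3 were called wider and 10 narrower, where 12.5% and 16.4% of all tested genes were. The median change was -0.432, where all tested genes had -0.237. The narrower ones included 4 genes of IGF binding proteins, which hold IGFs in the extracellular space, Igfbp3 (-2.10), Igfbp5 (-1.98), Igfbp1 (-1.64) and Igfbp2 (-1.63). They lie at 2 loci, since Igfbp1 and Igfbp3 are neighbours with overlapping windows, as are Igfbp2 and Igfbp5. Igfbp1 covered 0 kb in both OL lists, against 2.26 and 1.81 in OPC. It passed the filter through OPC alone and shows no spread in OL. Igfbp3 and Igfbp5, each under 1 kb in both OL lists after scaling, also reached the mean through OPC. Igfbp6 did not pass (change -0.30, adjusted p = 0.292, limma), and Igfbp4 and Igfbp7 did not reach the mean for testing. The Igfbp2 call was lost over the gene body alone (change -1.27, adjusted p = 0.0971, limma) and with 0.25 kb added (change -2.60, adjusted p = 0.0784, limma). Igfbp3 covered 0.791 and 0 kb in OL, against 4.61 and 4.11 in OPC. Pik3r1 (-1.41), the regulatory subunit gene of PI3 kinase, Insr (-1.26), the insulin receptor gene, and Igf2bp3 (-0.96), which codes for an RNA-binding protein of Igf2 mRNA, were also narrower. Akt2, a kinase of the pathway, was wider by 1.15, with 9.55 and 7.76 kb in OL, against 4.12 and 2.16 in OPC. Mtor (0.76) and Rptor (0.53), named because their values were seen, were the other gains. Igf1r, the receptor through which IGF2 acts, covered 16.0 and 18.8 kb in OL, against 21.2 and 17.5 in OPC, and did not pass (change -0.28, adjusted p = 0.219, limma). Igf2r, which clears IGF2, covered 2.19 and 0.246 kb in OL, against 2.13 and 1.74 in OPC, and did not pass (change -0.66, adjusted p = 0.164, limma). Without OPC of either line no gene of the list passed, and without OL of EpiSC5 the counts were 0 wider and 4 narrower. Without OL of 129O1 they were 1 wider and 10 narrower.

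The imprint maintenance list held 14 genes that set or keep imprints or, as the Tet genes, oxidise methylcytosine. Of these, 10 were tested, and 3 were called wider and 1 narrower, where 12.5% and 16.4% of all tested genes were. The median change was -0.22, where all tested genes had -0.237. Dnmt3a, a de novo DNA methyltransferase gene, was wider by 0.78 (adjusted p = 0.0214, limma), with 16.6 and 13.6 kb in OL, against 9.01 and 6.31 in OPC. The other 2 wider calls, Tet1 (0.73) and Tet3 (0.62), code for enzymes that oxidise methylcytosine rather than set or keep it. Dnmt1, the maintenance methyltransferase gene, was narrower by a change of -0.84 (adjusted p = 0.0287, limma), with 3.67 and 2.07 kb in OL, against 5.80 and 4.78 in OPC. The Dnmt1 call was lost without scaling the lists and with equal numbers of peaks per list, both with the same sign, and without OPC of either line or OL of EpiSC5 no gene of the list passed. Without OL of 129O1 the counts were 1 wider and 2 narrower.

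**Figure D5:**
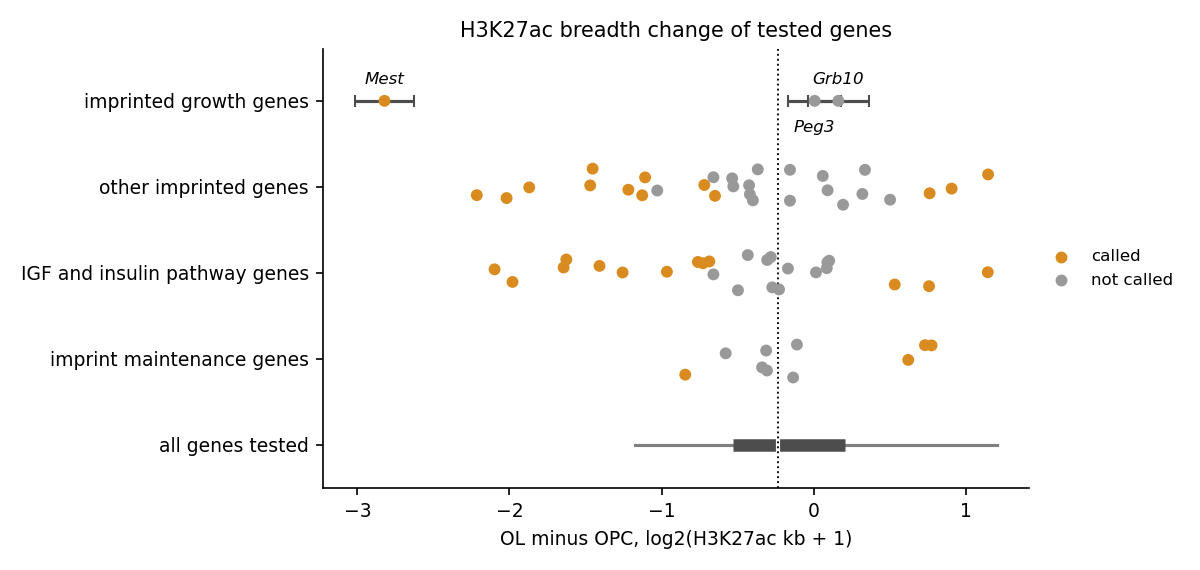
Change in H3K27ac breadth, OL minus OPC on the log2(kb + 1) scale, of the 3 imprinted growth genes tested (bars are SE) and of the tested genes of the 3 lists, with called genes in orange; the bottom row gives the 5th to 95th percentile (thin line) and 25th to 75th percentile (thick bar) of all 12446 genes and the dotted line their median. Mest, at -2.82, lies left of every gene of the 3 lists, and Peg3 and Grb10 lie between the 25th and 75th percentiles.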

How the data were processed

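The members and gene lists were chosen with earlier results of these data known. Cells were harvested by magnetic sorting, and ChIP used 9 µg of H3K27ac or 15 µg of SOX6 antibody per sample, per the labels' protocols. Of 9 samples, 2 inputs, titled as embryonic stem cells but otherwise labelled as OPC, were not analysed here. The submitters' processing notes name Bowtie2 2.3.2, Trim Galore 0.3.1, bedtools, deepTools and Picard, with the build mm10. For peak caller and control the sources used here give no name. Each deposited peak has a score, a fold enrichment (a ratio), −log10 p and −log10 q, and SOX6 peaks also a summit offset, all deposited by the authors in 1 list per library and used here within a list alone. The protocols name more than 1 sequencer and assign none to a library, so that batch was not examined.

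Gene positions, promoter windows and microRNAs came from RefSeq tables of GRCm38.p6 (mm10), with 1-based coordinates. Promoter windows matched 8 of the 10 genes, and no genome or exon annotation was used. Covered length was the union of peaks. H3K27ac lengths were scaled to equal totals (factors 0.8795 and 1.029 in OL, 0.919 and 1.202 in OPC of 129O1 and EpiSC5), taken as log2(kb + 1) and fitted with limma 3.58.1 in R 4.3.3 (trend, terms for line and state, residual degrees of freedom 1, prior 5.049). The Benjamini-Hochberg adjustment ran over all 12446 genes whose 4 lists averaged 1 kb or more. The fit was tested on simulated data. Each line gave both its OL and its OPC, so the line entered as a block. Fits that left out 1 list held the state term or the line term alone, and the rule of equal signs was not applied there. Deviations of OL and OPC of a line correlated at 0.274 across genes, which are not independent. Overlap meant at least 1 bp. SOX6 in OL has 1 list and no test. Genes named are the 10 members, their neighbours, up to 8 called genes of each list by absolute change and the 3 genes nearest to a called member. Igf1r, Igf2r, Igfbp6 and the further called gains fall outside that rule and were named after their values were seen, as were single markers. The alternatives tried are given with the limits below. A sum over the oligodendrocyte markers is not reported here.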

Additional observations from a re-analysis of the deposited data

Results flagged for a closer look

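For Grb10 and Peg3 the scaled values had opposite signs in the 2 lines. The scaled H3K27ac change of Grb10, OL minus OPC, was -0.11 in 129O1 and 0.43 in EpiSC5. That of Peg3 was -0.02 in 129O1 and 0.04 in EpiSC5, both smaller than the SE of its change (0.17), and its signs turned on the scaling. Without scaling Peg3 had 0.03 in 129O1 and 0.22 in EpiSC5, and with equal numbers of peaks 0.03 and -0.02. The difference between lines was not tested for either gene, each value comes from 1 list per state, and 15.4% of the 12446 tested genes also had opposite signs in the lines.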

How the results depend on the processing

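For the state difference of the members, 15 alternatives were run, and for the line difference a matching set called none of them. Members called narrower in OL numbered 0 with no filter, with the higher-scoring 50% of each list, where Mest fell under the filter, and without OPC of either line (0 to 1 when each list was left out). With no filter and without OPC of either line no gene of all tested passed, and the change of Mest was -2.82, -2.97 and -2.68. Members called wider numbered 1 with 50 kb on each side (Grb10). The change of Mest was -1.63 on peaks per gene. With 50 kb on each side, 2 members had SOX6 in OL and 6 in OPC of EpiSC5. With equal numbers of SOX6 peaks, 1 had it in OPC of EpiSC5 and 1 in both lines, Grb10 in each case. Mest then lost SOX6 in OPC of EpiSC5, and Peg3 lost it in OPC of both lines. With the higher-scoring 50%, 0 regions were held by both OPC lists only, and SOX6 peaks within H3K27ac numbered 1 in OPC of 129O1 and 0 in EpiSC5. The causes were not tested. Of the values recomputed for single genes and for all genes, 173 kept their direction and side of the threshold or moved within their spread, 65 moved further, 3 lost a call (Mest, above) and 1 gained one (Grb10).

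Without the replicate block (no cell line term) the change of Mest was -2.82 (adjusted p = 0.00666, limma), and 1234 genes were called wider and 1370 narrower, in place of 1560 and 2040. Imprint maintenance genes then had 1 called wider, and no other count of members or lists moved by over 1.5 times.

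The counts of the 3 lists were recomputed under the same alternatives, a choice made after the data were seen. No gene of any list was called with no filter, where 0 of all genes passed and 4813 had an unadjusted p under 0.05. With the higher-scoring 50% the IGF list had 0 wider and 1 narrower and the other lists 0. On peaks per gene the other imprinted genes had 0 wider and 5 narrower, the IGF list 1 wider and 0 narrower and the imprint maintenance list 0. Other imprinted genes had 5 wider with 50 kb on each side and 6 narrower at a mean of at least 3 kb. The IGF list had 6 narrower over the gene body alone. The imprint maintenance list had 2 narrower with 50 kb, and 0 without scaling or with equal numbers of peaks. When each list was left out, wider counts were 0 to 3 (other imprinted genes), 0 to 1 (IGF) and 0 to 1 (imprint maintenance), and narrower counts 0 to 11, 0 to 10 (4 without OL of EpiSC5) and 0 to 2.

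Over all genes, in place of 2040, 1009 were narrower over the body alone, 3657 with 50 kb, 1193 at a mean of 3 kb, 1143 without scaling, 1214 with equal numbers of peaks, 87 with the higher-scoring 50%, 417 on peaks per gene and 447 without OL of EpiSC5. In place of 1560, 2381 were wider with 50 kb, 200 with the higher-scoring 50%, 686 on peaks per gene and 597 without OL of EpiSC5. Between lines the counts were 0 to 148 wider and 0 to 43 narrower in 129O1. Depth is unknown, list lengths differ, and each state rests on 2 lists, so absent peaks and the tested changes are limited by these libraries.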
